A study of Homo sapiens with 6 samples.

Results

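MHC class I antigen presentation was followed through 9 genes, picked by symbol from the 62016 gene rows of each deposited table. They were the class I heavy chain genes HLA-B, HLA-C and HLA-E, the light chain gene B2M, the peptide transporter genes TAP1 and TAP2, the immunoproteasome genes PSMB8 and PSMB9, and the transactivator gene NLRC5. The cells were Kasumi-1, an established line of human AML (acute myeloid leukemia) with the fusion gene AML1-ETO, infected for 4 days with PLKO viruses packaged in 293T cells. The groups were JMJD1C shRNA63, JMJD1C shRNA95 and control shRNA, with 2 libraries each, so all of them, controls included, were virus-infected cells of 1 line. JMJD1C encodes a protein of the JmjC demethylase family. A further table of the authors set 1 library with an AML1-ETO shRNA against 1 control library, both from another published series. The JMJD1C tables give 1 FPKM value per group (fragments per kilobase of transcript, scaled to the fragments mapped), into which the authors had combined the 2 libraries, so no value per library can be shown and the depth of each library is unknown. Nothing says that the libraries of a group were separate cultures, and the p-values may therefore measure technical spread.

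The targeted gene and the cell type were checked first. JMJD1C stood at 13.7 FPKM with shRNA63 against 30.4 FPKM with control shRNA, and in the libraries labelled shRNA95 at 25.1 FPKM against 29.4 FPKM with control shRNA. The authors' deposited tables gave JMJD1C log2 fold changes of -1.15 (q = 0.00214) with shRNA63 and -0.23 (q = 0.938) with shRNA95, so with shRNA95 a loss was not detectable, and directions given for those libraries rest on their label. The 6 myeloblast markers summed to 6609 FPKM with shRNA63 and 3272 FPKM with shRNA95, against 2599 and 2520 FPKM in their controls, but they did not move together. With shRNA63, ELANE (3745 against 1143 FPKM), AZU1 (2592 against 1040 FPKM) and CD33 were called higher and KIT (133.8 against 245.2 FPKM) was called lower. With shRNA95, AZU1 and CD34 (249 against 146.1 FPKM) were called higher, while CD34 stood at 103.2 against 150.7 FPKM with shRNA63, without a call. Of these markers, CD34, KIT, CD33, ELANE and AZU1 lay at 19.2 FPKM or more in every group, and MPO was listed at 0 because the authors' program had skipped it for too many fragments. B cell markers summed to 9.35 FPKM with shRNA63 and 11.6 FPKM with shRNA95, against 14.8 and 14.3 FPKM in their controls, and T and NK cell markers to 4.62 and 6.28 FPKM against 10.4 and 10.1 FPKM. With shRNA95 the only called gene of that T and NK cell list was NKG7, which was higher, at 3.90 against 0.590 FPKM, while CD3D stood at 1.59 against 8.26 FPKM without a call. Erythroid markers summed to 1.34 FPKM with shRNA63 and 1.03 FPKM with shRNA95, against 1.89 and 1.84 FPKM. The monocyte and dendritic cell list summed to 59.7 FPKM with shRNA63 and 71.0 FPKM with shRNA95, against 7.56 and 7.32 FPKM in their controls, nearly all of it LYZ, and 5 of its 6 markers, CD14 among them, stayed under 1 FPKM. Whether LYZ-high or lymphoid-marked cells had a part in the class I values was not tested, and in a bulk sample a change in cell makeup and a change per cell cannot be told apart.

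Class I molecules display peptides from inside the cell to cytotoxic T cells. The proteasome cuts the peptides, the TAP transporter carries them into the endoplasmic reticulum, and a loading complex places them on a heavy chain paired with the light chain. NLRC5 acts at a promoter module that is bound by the RFX complex, CREB/ATF factors and the CCAAT-binding factor NF-Y, while interferons act on many of the same genes through STAT and IRF factors. On leukemia cells the pathway is known above all because T cell and natural killer cell receptors recognize class I molecules.

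The promoters of HLA-B, HLA-C, B2M and TAP1 are shown as examples that carry letters of that module, of the interferon response or of both. Promoters of TAP2, PSMB8 and PSMB9 carried such letters too and are not shown. RefSeq promoter sequences (build GRCh38.p14) matched 7 of the 9 members with 9 starts, all but HLA-E and NLRC5, and the 250 bases before each start were searched on both strands for CCAAT, for TGACG (the core of CREB/ATF sites), for the core of an interferon-stimulated response element, or ISRE (GAAA, 2 bases of any kind and GAAA), and for the NF-kB site of the class I enhancer A (GGG, any base and ATTCCC). Matches are in capitals, those on the other strand as their reverse complement (ATTGG for CCAAT), and the sequences run 5′ to 3′ on the strand of the gene. They lie at chr6:31357180-31357429 for HLA-B, chr6:31272093-31272342 for HLA-C and chr6:32853705-32853954 for the first start of TAP1, all on the minus strand, and at chr15:44711267-44711516 on the plus strand for B2M.
HLA-B: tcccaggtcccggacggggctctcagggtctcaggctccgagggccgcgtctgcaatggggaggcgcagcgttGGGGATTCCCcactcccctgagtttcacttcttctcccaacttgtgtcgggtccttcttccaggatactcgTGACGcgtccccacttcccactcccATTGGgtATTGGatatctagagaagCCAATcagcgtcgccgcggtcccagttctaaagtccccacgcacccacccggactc
HLA-C: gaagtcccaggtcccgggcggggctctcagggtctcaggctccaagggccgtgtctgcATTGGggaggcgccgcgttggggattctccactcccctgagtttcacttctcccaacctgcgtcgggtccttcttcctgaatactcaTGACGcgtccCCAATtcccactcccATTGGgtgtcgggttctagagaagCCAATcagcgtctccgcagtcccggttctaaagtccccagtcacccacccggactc
B2M: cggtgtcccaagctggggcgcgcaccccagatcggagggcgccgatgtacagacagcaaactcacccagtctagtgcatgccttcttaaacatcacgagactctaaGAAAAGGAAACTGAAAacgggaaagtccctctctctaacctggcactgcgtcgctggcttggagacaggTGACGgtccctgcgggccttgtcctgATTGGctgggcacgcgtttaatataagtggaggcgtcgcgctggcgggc
TAP1: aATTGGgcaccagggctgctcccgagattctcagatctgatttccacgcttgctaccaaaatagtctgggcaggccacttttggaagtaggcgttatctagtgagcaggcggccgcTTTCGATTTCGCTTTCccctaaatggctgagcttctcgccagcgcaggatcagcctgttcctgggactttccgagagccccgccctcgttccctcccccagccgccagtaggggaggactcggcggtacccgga

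HLA-B held 3 CCAAT matches and 1 TGACG match, HLA-C 4 and 1, and B2M 1 and 1. In HLA-B the TGACG match began 106 bases before the start and in HLA-C 105 bases before it, with a CCAAT match 56 bases before the start in each. These promoters of HLA-B and HLA-C were identical at 89.0% of 254 aligned columns. B2M and the first start of TAP1 held 2 overlapping ISRE core matches each. These began 144 and 138 bases before the start of B2M and 134 and 128 bases before that of TAP1. The first start of TAP1 also held 1 CCAAT match. TAP2 held 1 ISRE core match and 1 TGACG match. PSMB9 held 1 CCAAT match and 1 TGACG match, and the first start of PSMB8 held 1 TGACG match. The windows of PSMB9 and the first start of TAP1 overlap, and their CCAAT matches are the same bases. The second starts of TAP1 and PSMB8 held none of the motifs. The NF-kB site letters were found in HLA-B only among the 9 windows. Among all 35116 promoter windows of that length, 32.0% held CCAAT, 21.2% TGACG, 3.02% the ISRE core and 0.196% the NF-kB site. The starts of TAP1 and PSMB9 lie 488 bases apart on opposite strands. A match describes letters and not a bound site.

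**Figure D1:**
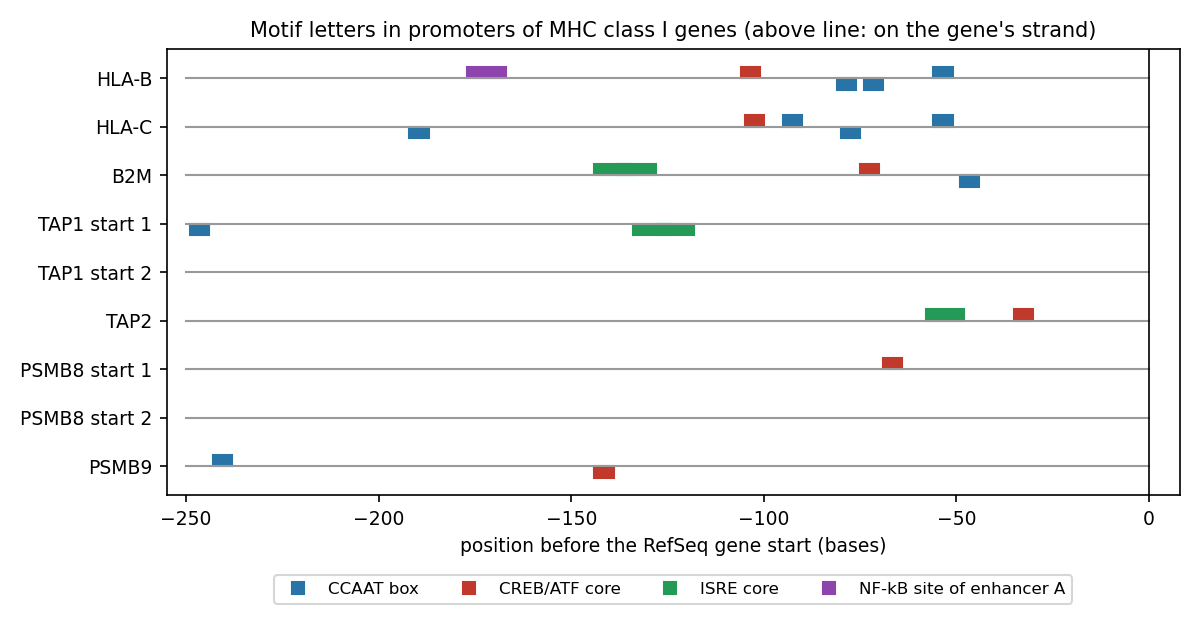
Positions of the 4 motifs in the 250 bases before each RefSeq start of 7 class I genes; the x axis is the distance from the start in bases, boxes above a line are on the strand of the gene and boxes below it on the other. In HLA-B and HLA-C the TGACG match begins 106 and 105 bases before the start, and the ISRE core matches of B2M and TAP1 begin between 144 and 128 bases before the start.

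The members covered a wide range of levels. In the table of shRNA63 their order by FPKM in the control was B2M, HLA-B, HLA-E, HLA-C, NLRC5, TAP2, PSMB8, TAP1 and PSMB9, and the control of the shRNA95 table, which holds the same libraries under another scaling, had the same order. B2M was at 2300 FPKM with shRNA63 against 1760 FPKM in the control, above 99.5% of 14475 measured genes (genes with at least 1 FPKM in the higher group). PSMB9 stood at the other end, with 1.64 FPKM with shRNA63 against 2.13 FPKM in the control. With shRNA63 HLA-C was listed above HLA-E, and NLRC5 held place 7, against place 5 in the control. With shRNA95 the order differed from its control in 1 pair, with TAP2 above NLRC5. Since no spread over libraries can be had, neighbours in these orders are not shown to differ.

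**Figure D2:**
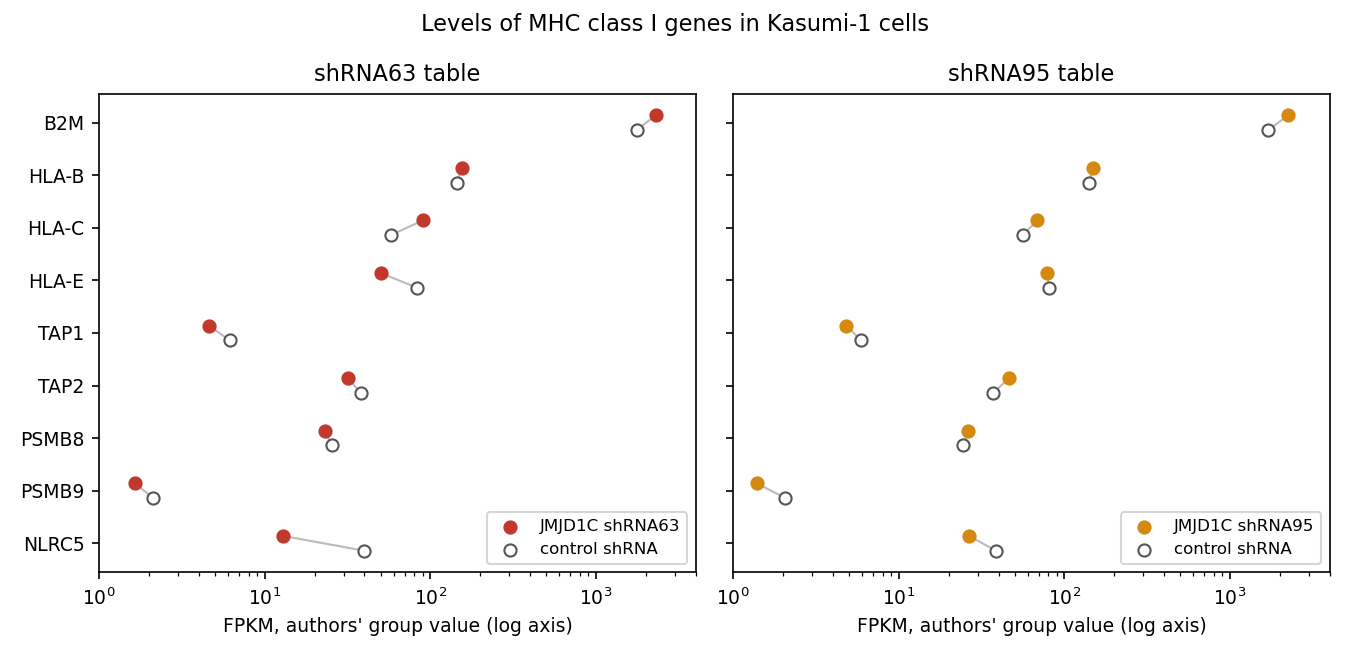
FPKM of the 9 genes on a log axis, 1 panel per table, filled points for the JMJD1C shRNA group and open points for control shRNA; each point is the authors' single value for 2 libraries. B2M lies at 1706 to 2300 FPKM, and the widest gap between the points is that of NLRC5 with shRNA63, at 12.9 against 39.7 FPKM.

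With shRNA63, NLRC5 and HLA-E fell, HLA-C stood higher just outside the threshold, and HLA-B, TAP1, TAP2, PSMB8 and PSMB9 were not called. A gene was called where the authors' q-value in Cuffdiff's test was under 0.05, which held for 2 of the 9 members, both lower, against 5.12% of all 18271 genes tested (2.83% for lower calls). At an unadjusted p under 0.05 the count was 4 of 9 (background 13.4%). Each error below is the absolute fold change on the log2 scale divided by the absolute test statistic, both the authors', and gives the 95% intervals by a normal distribution. When p-values were taken from that statistic by a normal distribution, with Benjamini-Hochberg adjustment over all genes, neither call held, with adjusted p-values of 0.0918 for NLRC5 and 0.138 for HLA-E.

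NLRC5, the transactivator of class I genes, stood at 12.9 FPKM with shRNA63 against 39.7 FPKM with control shRNA, or 32.6% of control. The authors' deposited table gave it a log2 fold change of -1.62 (error 0.56, 95% interval -2.72 to -0.52, q = 0.00214). It lies on chromosome 16 at 57023397 to 57117443 in hg19 (ENSG00000140853), and neither of the other 2 genes overlapping that locus reached 1 FPKM. HLA-E, a nonclassical heavy chain that presents signal peptides of other class I chains to natural killer cell receptors, stood at 50.2 FPKM with shRNA63 against 83.0 FPKM with control shRNA, or 60.5% of control. The authors' deposited table gave HLA-E -0.72 on the log2 scale (error 0.27, 95% interval -1.25 to -0.20, q = 0.00849). Its locus on chromosome 6, from 30457244 to 30461982 (ENSG00000204592), overlaps no other gene of the tables.

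HLA-C and HLA-B, both classical heavy chains, did not share the lower value of HLA-E. HLA-C had 89.9 FPKM with shRNA63 against 57.7 FPKM with control shRNA, and the authors' deposited table gave a log2 fold change of 0.64 (error 0.29, 95% interval 0.08 to 1.20, q = 0.0527). HLA-B had 155 FPKM with shRNA63 against 144.6 FPKM with control shRNA, and the authors' deposited table gave 0.10 on the log2 scale with an interval of -0.39 to 0.59. Relative to HLA-B, the FPKM of HLA-E was 32.4% with shRNA63 against 57.4% with control shRNA, and that of HLA-C 58.0% against 39.9%. In hg19 HLA-B lies from 31321649 to 31324965 and HLA-C from 31236526 to 31239907 on chromosome 6. The members on chromosome 6 also had 45 rows on other MHC haplotypes, all listed at 0 in both JMJD1C tables. Heavy chain genes are close copies of one another, so the authors' counting may have shared reads among them.

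B2M, the light chain paired with the heavy chains HLA-B, HLA-C and HLA-E, had 2300 FPKM with shRNA63 against 1760 FPKM with control shRNA. In the authors' deposited table this was 0.39 on the log2 scale (error 0.15), with a p of 0.0403 and a q of 0.325. B2M lies on chromosome 15 from 45003675 to 45011075 (ENSG00000166710) in hg19.

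Among the genes of peptide supply, TAP2 and PSMB9 were measured with the least precision of all members. TAP1 had 4.60 FPKM with shRNA63 against 6.13 FPKM with control shRNA, a change of -0.41 on the log2 scale with an error of 0.43 in the authors' deposited table. TAP2, the other chain of the transporter, had 31.6 FPKM with shRNA63 against 38.2 FPKM with control shRNA, -0.27 on the log2 scale with an error of 0.92 in the authors' deposited table. TAP2 lies from 32780540 to 32806599 on chromosome 6. A second row of that symbol on the same locus (ENSG00000250264) was at 0.801 FPKM with shRNA63 against 0.979 FPKM with control shRNA. PSMB8, the immunoproteasome subunit that replaces PSMB5, had 23.2 FPKM with shRNA63 against 25.3 FPKM with control shRNA, or 10.6% of the PSMB5 value against 11.2%. The change of PSMB8 was -0.13 on the log2 scale with an error of 0.30 in the authors' deposited table. PSMB9, which replaces PSMB6, was at 1.41% of its counterpart with shRNA63 against 2.24% with control shRNA, and its error of 1.31 on the log2 scale left a change of several-fold undetectable. TAP1, PSMB8 and PSMB9 share 1 locus in the tables, from 32808494 to 32847625 on chromosome 6. A further gene overlapping that locus reached 1 FPKM with shRNA63 or its control. Reads of overlapping transcripts may therefore be split among these genes.

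In the libraries labelled shRNA95 no member was called. The count was 0 of 9 by Cuffdiff, against 4.4% of all 18006 genes tested, and 1 of 9 at an unadjusted p under 0.05 (background 12.3%), while the normal test from the statistic also called 0. The member at that p was B2M, with 2243 FPKM in the shRNA95 group against 1706 FPKM in the control and a log2 fold change of 0.40 (error 0.16, q = 0.348) in the authors' deposited table. NLRC5 had 26.5 FPKM with shRNA95 against 38.5 FPKM in the control, or 69.0% of control, and its interval on the log2 scale ran from -1.42 to 0.35 in the authors' deposited table. HLA-E had 78.8 FPKM with shRNA95 against 80.5 FPKM in the control, or -0.03 on the log2 scale with an interval of -0.59 to 0.53 in the authors' deposited table. HLA-C had 68.4 FPKM with shRNA95 against 55.9 FPKM in the control, and HLA-B 149.5 FPKM against 140.2 FPKM.

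The remaining members showed no common direction with shRNA95. TAP1 was at 4.80 FPKM with shRNA95 against 5.94 FPKM in the control and TAP2 at 46.4 FPKM against 37.0 FPKM. PSMB8 was at 26.2 FPKM against 24.6 FPKM and PSMB9 at 1.39 FPKM against 2.06 FPKM, which are 11.4% against 11.2% of PSMB5 and 1.24% against 2.24% of PSMB6. The median log2 fold change over the 9 members was -0.27 with shRNA63 and 0.09 with shRNA95 in the authors' deposited tables, beside 0.02 and 0.04 over all genes tested. The value with shRNA63 is that of TAP2 (error 0.92) and the value with shRNA95 that of HLA-B (error 0.26). A shift of the 9 genes as a group was not tested.

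**Figure D3:**
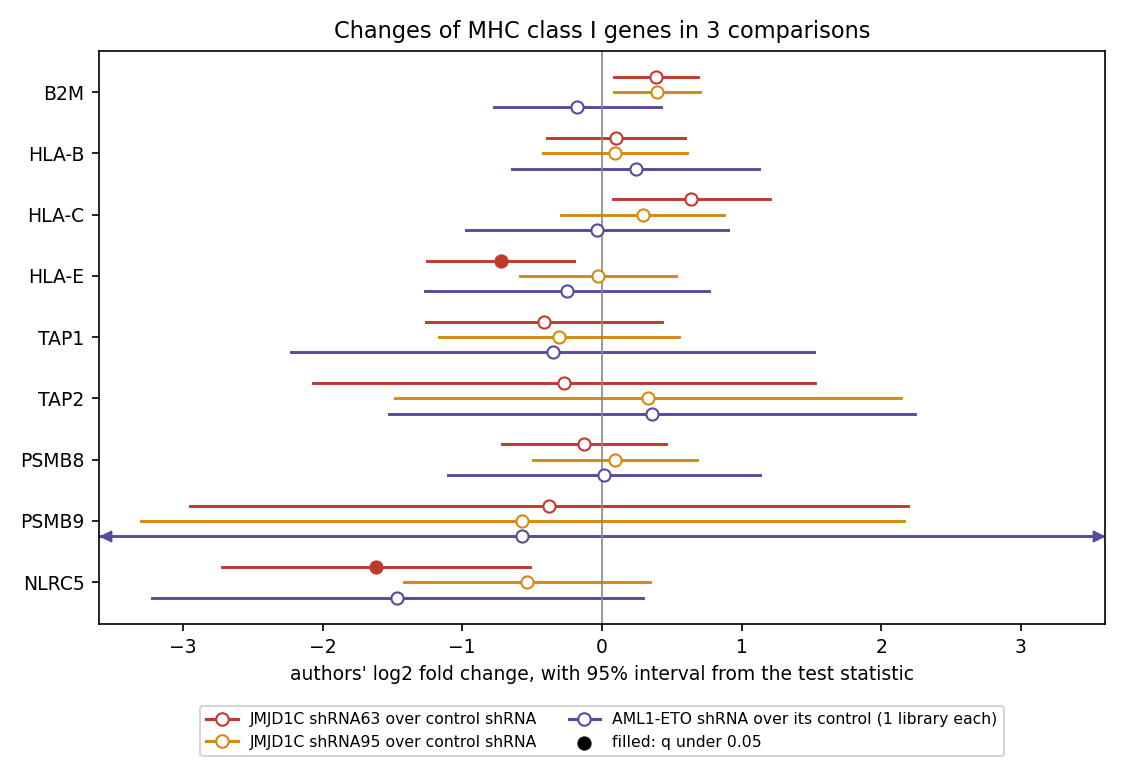
Authors' log2 fold changes of the 9 genes in 3 comparisons (JMJD1C shRNA63, JMJD1C shRNA95 and AML1-ETO shRNA, each over its control) with 95% intervals from the test statistic; filled points have a q under 0.05. NLRC5 at -1.62 and HLA-E at -0.72 with shRNA63 are the 2 filled points, and the AML1-ETO interval of PSMB9, from -8.31 to 7.16, runs past the axis, as arrowheads show.

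The hairpins share their control libraries, so their values stand side by side here and the difference itself was tested. The test divided the difference of log2 fold changes by the root of the summed squared errors, against a normal distribution, with adjustment over 17267 genes. Errors under percentile 10 of their table (0.259 with shRNA63 and 0.261 with shRNA95) were first raised to it. This widened the interval of B2M, whose own errors were 0.15 and 0.16, and slightly that of HLA-B, whose shRNA63 error was 0.252. It passed for 0 of the 9 members, against 0.84% of all genes, and 0 members had an unadjusted p under 0.05 (background 4.81%). HLA-E differed by -0.70 (shRNA63 minus shRNA95, error 0.39, 95% interval -1.46 to 0.07) with an unadjusted p of 0.0760. NLRC5 differed by -1.08 (error 0.72, 95% interval -2.49 to 0.33) with an unadjusted p of 0.133. For HLA-B the difference was 0.0073 with an interval of -0.72 to 0.73. For B2M it was -0.0090 with an interval of -0.73 to 0.71. Both intervals use the raised errors. The calls of NLRC5 and HLA-E with shRNA63 are therefore not shown to be particular to that hairpin.

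In the AML1-ETO table no member was called either, against 0.411% of 22406 genes tested (0.223% higher and 0.187% lower), and 0 members had an unadjusted p under 0.05 (background 6.67%). This comparison has 1 library a side and no replicate check, so it compares those libraries and not the conditions. The authors' deposited table gave NLRC5 the lowest log2 fold change of the 9, at -1.46 (error 0.90, 95% interval -3.22 to 0.29). HLA-E stood at -0.25 (error 0.52) and B2M at -0.18 (error 0.30) in the authors' deposited table. HLA-B was at 0.24 (error 0.45) and HLA-C at -0.03 (error 0.48) in that authors' deposited table. TAP1 was at -0.35, TAP2 at 0.36, PSMB8 at 0.01 and PSMB9 at -0.58 in the authors' deposited table, the last with an error of 3.95.

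Further genes of the pathway were taken from 6 lists with 61 genes in all. With shRNA63, 2 of 58 tested genes were called higher (background 2.29%) and 1 lower (background 2.83%), shares near those of all genes. With shRNA95, 4 of 57 were called higher (background 2.59%) and 1 lower (background 1.82%). For AML1-ETO, 0 of 58 were called by Cuffdiff (background 0.411%), with 2 at an unadjusted p under 0.05 (background 6.67%).

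The calls with shRNA95 lay mainly in the loading complex. Of 12 genes for peptide loading and trimming, 3 were called higher with shRNA95 (background 2.59%) and 0 with shRNA63 (background 2.29%), where 1 had an unadjusted p under 0.05 (background 13.4%). TAPBP, which encodes tapasin, the bridge between TAP and the heavy chain, had 49.2 FPKM with shRNA95 against 27.0 FPKM in the control, and the authors' deposited table gave a log2 fold change of 0.87 (error 0.30, q = 0.00216). With shRNA63 it had 27.5 FPKM against 27.8 FPKM in the control. PDIA3, the oxidoreductase ERp57 of the complex, had 503.9 FPKM with shRNA95 against 235.8 FPKM in the control, a log2 fold change of 1.10 (error 0.38, q = 0.00216) in the authors' deposited table. CALR, whose protein calreticulin holds newly made heavy chains, had 4713 FPKM with shRNA95 against 2239 FPKM in the control and 3196 FPKM with shRNA63 against 2310 FPKM. In the authors' deposited tables this was 1.07 on the log2 scale (error 0.34, q = 0.00216) with shRNA95 and 0.47 (q = 0.264) with shRNA63. PDIA3 and CALR also serve general protein folding. The difference between hairpins did not pass for any of these, the nearest being TAPBP at -0.89 (error 0.40), where the p of 0.0287 became 0.794 on adjustment over all genes. By the normal test from the statistic only CALR stayed called among the 5 pathway genes called with shRNA95.

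Of the other class I and class I-like heavy chains, 2 of 11 tested were called higher with shRNA63 (background 2.29%), MICB and FCGRT, and 1 of 10 with shRNA95 (background 2.59%), MR1. The test between hairpins passed for none of these 3. MICB, a stress-induced ligand of the NKG2D receptor, had 14.9 FPKM with shRNA63 against 8.58 FPKM in the control and 11.9 FPKM with shRNA95 against 8.31 FPKM, with log2 fold changes of 0.80 (q = 0.00391) and 0.51 (q = 0.128) in the authors' deposited tables. FCGRT, the heavy chain of the neonatal Fc receptor, had 309.1 FPKM with shRNA63 against 204.4 FPKM in the control, a log2 fold change of 0.60 (q = 0.0432) in the authors' deposited table. With shRNA95 FCGRT had 281.5 FPKM against 198.1 FPKM, or 0.51 on the log2 scale (q = 0.157) in the authors' deposited table. MR1, which presents vitamin B metabolites, had 7.64 FPKM with shRNA95 against 4.28 FPKM in the control, at 0.84 (q = 0.0350) in the authors' deposited table, and with shRNA63 6.24 FPKM against 4.42 FPKM, at 0.50 (q = 0.409).

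Of 16 tested regulators of class I transcription, 1 was called lower with shRNA63 (background 2.83%) and 1 with shRNA95 (background 1.82%), too few to set the list apart from all genes. SUZ12, a subunit of the Polycomb repressive complex, had 38.5 FPKM with shRNA63 against 66.6 FPKM in the control, a log2 fold change of -0.79 (error 0.28, q = 0.00214) in the authors' deposited table. NFYA, the subunit of NF-Y that contacts the CCAAT letters shown above, had 26.9 FPKM with shRNA95 against 42.6 FPKM in the control, at -0.66 (error 0.29, q = 0.0350) in the authors' deposited table, and 51.8 FPKM with shRNA63 against 44.0 FPKM. RFX5, a subunit of the RFX complex, had 51.3 FPKM with shRNA63 against 59.5 FPKM in the control and 41.3 FPKM with shRNA95 against 57.7 FPKM. None of 12 tested interferon receptor and signalling genes was called with either hairpin by Cuffdiff (background 5.12% with shRNA63 and 4.4% with shRNA95). With each hairpin 1 of 12 had an unadjusted p under 0.05 (background 13.4% with shRNA63 and 12.3% with shRNA95). None of 4 further immunoproteasome and PA28 genes and none of 3 constitutive counterparts was called. Of these lists, 0 and 1 genes had such a p with each hairpin, against the same background shares. PSMB10, which replaces PSMB7, was at 16.1% of the PSMB7 value with shRNA63 against 15.4% in the control, and at 18.3% with shRNA95 against 15.5%.

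**Figure D4:**
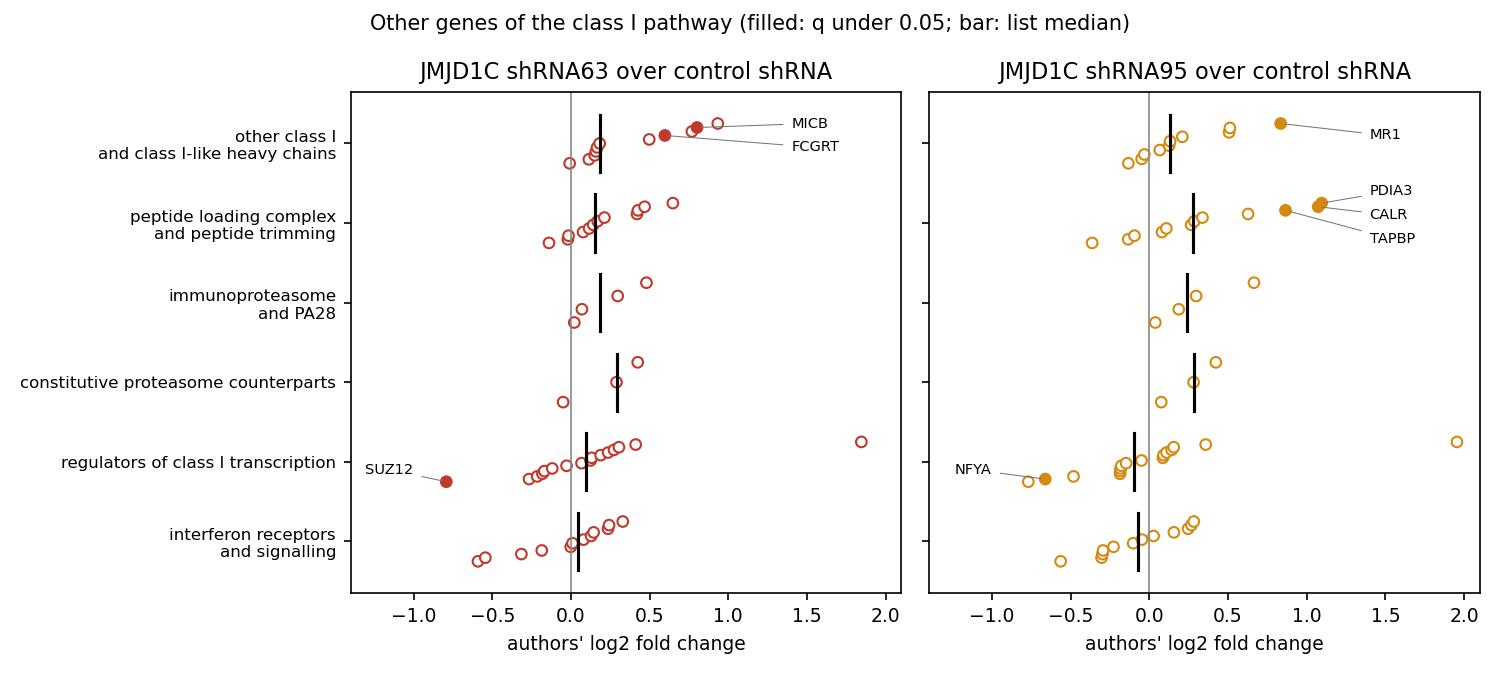
Authors' log2 fold changes of the further pathway genes that were tested, 1 point per gene and 1 row per list, for shRNA63 (left) and shRNA95 (right) over control shRNA; filled points have a q under 0.05, and the bar is the list median. The loading list has a median of 0.28 with shRNA95 and 0.16 with shRNA63, and 3 filled points with shRNA95.

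The genes with changes most like the members' median over the 3 comparisons were POLR3E, HSPA8, DCLRE1B, AP2B1 and DNAJC21, ranked by Euclidean distance among 9740 genes with at least 5 FPKM in both controls. Their distances ran from 0.026 to 0.037 on the log2 scale. That median is small in each comparison, at -0.27, 0.09 and -0.18, and the hairpins share controls, so many genes lie near it.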

How the data were processed

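The 3 tables of gene comparisons hold 1 comparison each, and each member was read from its row on the main chromosome. The submitters' processing notes name TopHat2 2.0.8b, Cuffdiff 2.1.1 and hg19 without saying what each was used for. Strandedness of the libraries is not stated, so antisense reads cannot be told apart. Per the file headers, the authors deposited FPKM, 1 value per group scaled within each table, so levels were compared only within a table. The deposited log2 fold changes, test statistics (a score per gene), p-values and q-values were used as deposited. Control FPKM in the table of shRNA63 were 1.03 times those listed for shRNA95. In the AML1-ETO table only comparison columns were used, and its 2 FPKM columns, which belong to another series, were not. Locus starts were taken as 0-based in the files and are given 1-based. Where 2 rows of TAP2 lay on chromosome 6, the identifier paired with the symbol in the reference names was taken.

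Computed here with Python 3.11.15, NumPy 2.4.6, pandas 2.3.3 and SciPy 1.17.1 were errors, intervals, the test between hairpins (errors under percentile 10 raised to it) and motif counts. That test was also run on simulated data, drawn with the same errors and without a shared control. The simulation therefore does not check whether those errors or their independence hold here. The deposited p-values of the JMJD1C tables mostly lie below those a normal distribution would give: at the median gene, the deviate matching p was 1.41 times the deposited statistic. The test between hairpins treats the errors as independent although the control is shared. The members and lists were chosen with earlier results of these data known, and named pathway genes are those called in any table (at most 8 a list), with the 5 genes nearest to the members' median; other names were chosen after their values were seen. Gene names outside that rule are JMJD1C as the targeted gene, RFX5, the proteasome genes in ratios and the cell type markers. Not all called markers were described: CD79A and CD3E were also called lower with shRNA63, CSF1R higher with shRNA63 and KLF1 lower with shRNA95. Ratios used for list medians on FPKM had a pseudocount of 1.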

Additional observations from a re-analysis of the deposited data

How the results depend on the processing

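No paired analysis was possible because the tables hold 1 value per group and none per library, and for the same reason no library could be left out. At an unadjusted p under 0.05 the members called became 4 with shRNA63 (2 higher and 2 lower), 1 with shRNA95 and 0 in the AML1-ETO table. The further pathway genes called became 7 of 58, 10 of 57 and 2 of 58. Over all genes tested, the shares at that p were 13.4%, 12.3% and 6.67%. With the normal test from the statistic the members called were 0 with either hairpin, and the further pathway genes 0 with shRNA63 and 1 with shRNA95. A q under 0.01 left 3 further genes with shRNA95. At a q under 0.1 the members called with shRNA63 were 3, HLA-C being the added one. No share of all genes was taken at those q thresholds or by the normal test, so these counts have no background beside them. The median log2 ratio of the members (pseudocount 1) was -0.25 with shRNA63 and 0.09 with shRNA95, and it moved to -0.26 and 0.06 once the median of all measured genes was taken off. Over all genes the test between hairpins passed for 145, for 584 with errors scaled to the deposited p and for 301 with no floor on the errors. It passed for 599 with an assumed part of each squared error removed for the shared control. That part was not estimated. Its removal shrinks all errors by nearly the same factor as the scaling, so these are not separate checks. In each of these settings 0 members passed. With scaled errors or with the shared part removed, HLA-E and NLRC5 had unadjusted p-values under 0.05 in that test, with smallest adjusted p-values of 0.207 and 0.200. The share of all genes at that p was not taken in these settings, and the 4.81% given above holds for the main setting only. The cause of the shifts between settings was not tested. PSMB9 and TAP2 have the widest errors of the members, and depth per library is unknown.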

Other observations

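The deposited p-value and the deposited test statistic rank the members differently. With shRNA63, B2M had a statistic of 2.51 and a p of 0.0403 in the authors' deposited table, while a normal distribution gives 0.0121 for that statistic. HLA-C had a smaller statistic, 2.23, and a smaller p, 0.00275, in the authors' deposited table, against 0.0259 from a normal distribution. NLRC5 and HLA-E had statistics of -2.88 and -2.70 and p-values of 5e-05 and 0.00025 in the authors' deposited table, against 0.00401 and 0.00691 from a normal distribution. With shRNA95 the same held for B2M, with a p of 0.0379 in the authors' deposited table against 0.0115. B2M was thus the only one of these 4 whose deposited p lay above that of the normal distribution.

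HLA-E and HLA-C changed places with shRNA63: HLA-E stood at 50.2 FPKM and HLA-C at 89.9 FPKM, against 83.0 and 57.7 FPKM with control shRNA. In the libraries labelled shRNA95 HLA-E stood at 78.8 FPKM and HLA-C at 68.4 FPKM, against 80.5 and 55.9 FPKM in the control. The shift between these heavy chains was not tested.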
